A study of Mus musculus with 4 samples.

Results

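Angiopoietins, vascular endothelial growth factor (VEGF) and apelin are secreted ligands that act on receptors of the vessel wall. 9 genes of these systems were followed in mouse brain by single-cell RNA sequencing, and they were taken by gene symbol from the 32285 genes of the count matrices. The ligand genes were Apln, Angpt1, Angpt2 and Vegfa, the receptor genes were Aplnr, Tek, Kdr and Flt1, and Adamts9 encodes a secreted metalloprotease. The genes were chosen with their counts by cell class and library already known, so their levels and ratios are given as a description, without a test.

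All animals were male and carried a human APOE allele in place of the mouse Apoe gene, either homozygous APOE3 (APOE33, labelled ApoE3) or homozygous APOE4 (APOE44, labelled ApoE4). Mice received lipopolysaccharide (LPS, a bacterial cell wall component) intraperitoneally at 5 mg/kg and were killed 24 h later, or were in the group labelled NaCl. The 4 groups, ApoE3 and ApoE4 with NaCl or LPS, had 1 library each, made from the brains of 3 mice, in suspensions enriched for glia. Every group carried a human allele, and the age of the mice and the time of killing of the NaCl mice were not given in the sources used here. With 1 library per group there is no spread between animals, so treatment or genotype and the library itself cannot be told apart. Intervals are 95% exact intervals of counting and cover counting error only.

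Angpt1, made mainly by cells around the vessel, activates the receptor kinase Tie2, encoded by Tek, on endothelial cells and holds them quiescent. Angpt2 is stored in and released by endothelial cells themselves and antagonises Tie2 in many settings. Vegfa acts on endothelial cells through the signalling receptor VEGFR2 (Kdr), while VEGFR1 (Flt1) binds the same ligand tightly and signals weakly. Apelin (Apln) is made by sprouting tip cells and acts on the G protein-coupled receptor Aplnr. Adamts9 cleaves the proteoglycan versican in the extracellular matrix.

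Promoter sequences are shown for Kdr, Flt1, Adamts9 and Vegfa, since these 4 genes take in the VEGF receptors, the protease and the astrocyte ligand described below and a window of each holds a match to the consensus site of NF-kB, a transcription factor activated by LPS. They were chosen for display after the search, and the windows of Tek and Apln, which hold no match, are not shown. RefSeq windows from 250 bases before to 50 bases after the start site (GRCm38.p6) were at hand for 6 of the 9 genes, in 7 windows because Vegfa has 2. The lines give the 150 bases before the start site, 5′ to 3′ on the minus strand, with the NF-kB match in capitals. They lie at chr5:75978456-75978605 for Kdr, chr5:147726012-147726161 for Flt1, chr6:92943535-92943684 for Adamts9 and chr17:46032378-46032527 for the first Vegfa window.
Kdr: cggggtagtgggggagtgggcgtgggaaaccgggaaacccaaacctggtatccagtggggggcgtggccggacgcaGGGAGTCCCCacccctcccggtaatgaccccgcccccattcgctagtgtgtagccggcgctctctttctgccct
Flt1: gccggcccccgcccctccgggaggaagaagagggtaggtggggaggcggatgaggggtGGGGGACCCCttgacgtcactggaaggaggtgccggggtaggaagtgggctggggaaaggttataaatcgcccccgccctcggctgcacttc
Adamts9: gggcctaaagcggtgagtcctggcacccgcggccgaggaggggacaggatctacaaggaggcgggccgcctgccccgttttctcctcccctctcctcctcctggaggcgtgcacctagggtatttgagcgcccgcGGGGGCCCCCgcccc
Vegfa: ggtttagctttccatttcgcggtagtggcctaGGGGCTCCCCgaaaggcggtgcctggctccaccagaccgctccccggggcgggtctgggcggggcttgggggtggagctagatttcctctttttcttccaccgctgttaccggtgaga
Both strands of each window were searched for 5 motifs. The NF-kB consensus was found in 4 of the 7 windows and in 8.459% of all 32851 windows of that length. The hypoxia-response core GCGTG was found in 4 of the 7 windows (Adamts9, Flt1, Kdr and the other Vegfa window) and in 32.39% of all windows, and the core ACGTG in 1 window, of Vegfa, and in 19.62% of all. The FOXO motif GTAAACA (3.65% of all windows) and the AP-1 motif TGANTCA (7.808%) were in 0 of the 7 windows. A match is a description of these letters and not a measured binding site.

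The libraries held 15432 (NaCl) and 16078 (LPS) barcodes in ApoE3 and 14122 (NaCl) and 29361 (LPS) in ApoE4, with 73288965 to 114378032 UMIs each (unique molecular identifiers, which count captured RNA molecules). The ApoE4 LPS library stood apart: its barcodes had a median of 1292 UMIs, against 3969 to 5640.5 in the others, and 37.5% of them had under 1000 UMIs, against 4.53% to 5.62%. The doublet caller marked 0 of its barcodes and 7.95% to 9.66% in the others, so doublets remain in ApoE4 LPS. In that library 9195 kept barcodes (50.6%) fell in clusters that carried no name and are outside the classes compared below. They held 3138 UMIs of Flt1, 1651 of Adamts9, 268 of Tek and 226 of Kdr. The 344 endothelial cells of the same library held 6868, 3498, 569 and 425. Pairs of libraries shared 61 to 140 barcodes, at most 0.963% of the smaller library.

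Cells were clustered without the 9 genes and named from marker lists that do not hold them, so each name means endothelial-like, astrocyte-like and so on. There were 844 endothelial cells with NaCl and 768 with LPS in ApoE3, and 601 with NaCl and 344 with LPS in ApoE4. All 14 endothelial markers were detected in every library, with a summed level of 23371, 38483, 24790 and 45592 CPM. Runs of 4 values here and below follow that order, NaCl then LPS in ApoE3 and NaCl then LPS in ApoE4. CPM, the unit of all levels below, is the count scaled to the same total of UMIs in each class and library. Markers of other cells in the endothelial class were low by comparison but not constant: the 14 astrocyte markers summed to 443, 767, 418 and 1199 CPM and the 12 pericyte markers to 941, 840.3, 893 and 693 CPM. A further 196, 321, 78 and 207 vascular barcodes with markers of a second class were left out and are used below as a side value.

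Across the 12 classes with at least 50 cells in every library, the receptors were endothelial genes. Tek averaged 449 CPM ± 130 (SD over 4 libraries) in endothelial cells, Kdr 328 ± 101 and Flt1 4643 ± 563, and for each the lowest endothelial library lay above the highest library of the next class. Tek was next highest in neurons, at 11.5 to 12.7 CPM, and Flt1 in pericytes, at 212 to 347 CPM. Aplnr was almost undetected: the whole libraries held 14, 6, 10 and 2 UMIs, and the endothelial cells 5, 2, 4 and 0. With 3 counts taken as the bound, the 0 in ApoE4 LPS allows a level of up to 1.69 CPM.

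The ligands were spread over several classes. Vegfa was highest in astrocytes (292 CPM ± 90.2) and oligodendrocyte precursor cells (OPC, 164 ± 92.7), whose ranges overlapped each other, while the OPC range did not overlap that of choroid plexus epithelium (38.4 ± 9.09). Among these 12 classes Angpt1 was highest in astrocytes (108 ± 43.2) and next in fibroblasts (54.4 ± 34.6), with overlapping ranges. Apln had 3 classes at similar means, astrocytes (38.0 ± 19.9), oligodendrocytes (34.4 ± 4.61) and endothelial cells (26.7 ± 33.1), and these did not differ beyond their spread. Among the same classes Angpt2 averaged 67.6 ± 50.3 CPM in endothelial cells, from 4.61 to 120.0, and this range overlapped that of OPC (12.1 ± 3.91). Smooth muscle, too small for this ranking, held Angpt2 at 65.9, 21.3, 54.8 and 127 CPM, on only 10, 1, 6 and 4 UMIs. The endothelial level was therefore not set apart from that of smooth muscle. Adamts9 averaged 1129 ± 1278 in endothelial cells, from 9.63 to 2472, and OPC and astrocytes both averaged 52.0.

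**Figure D1:**
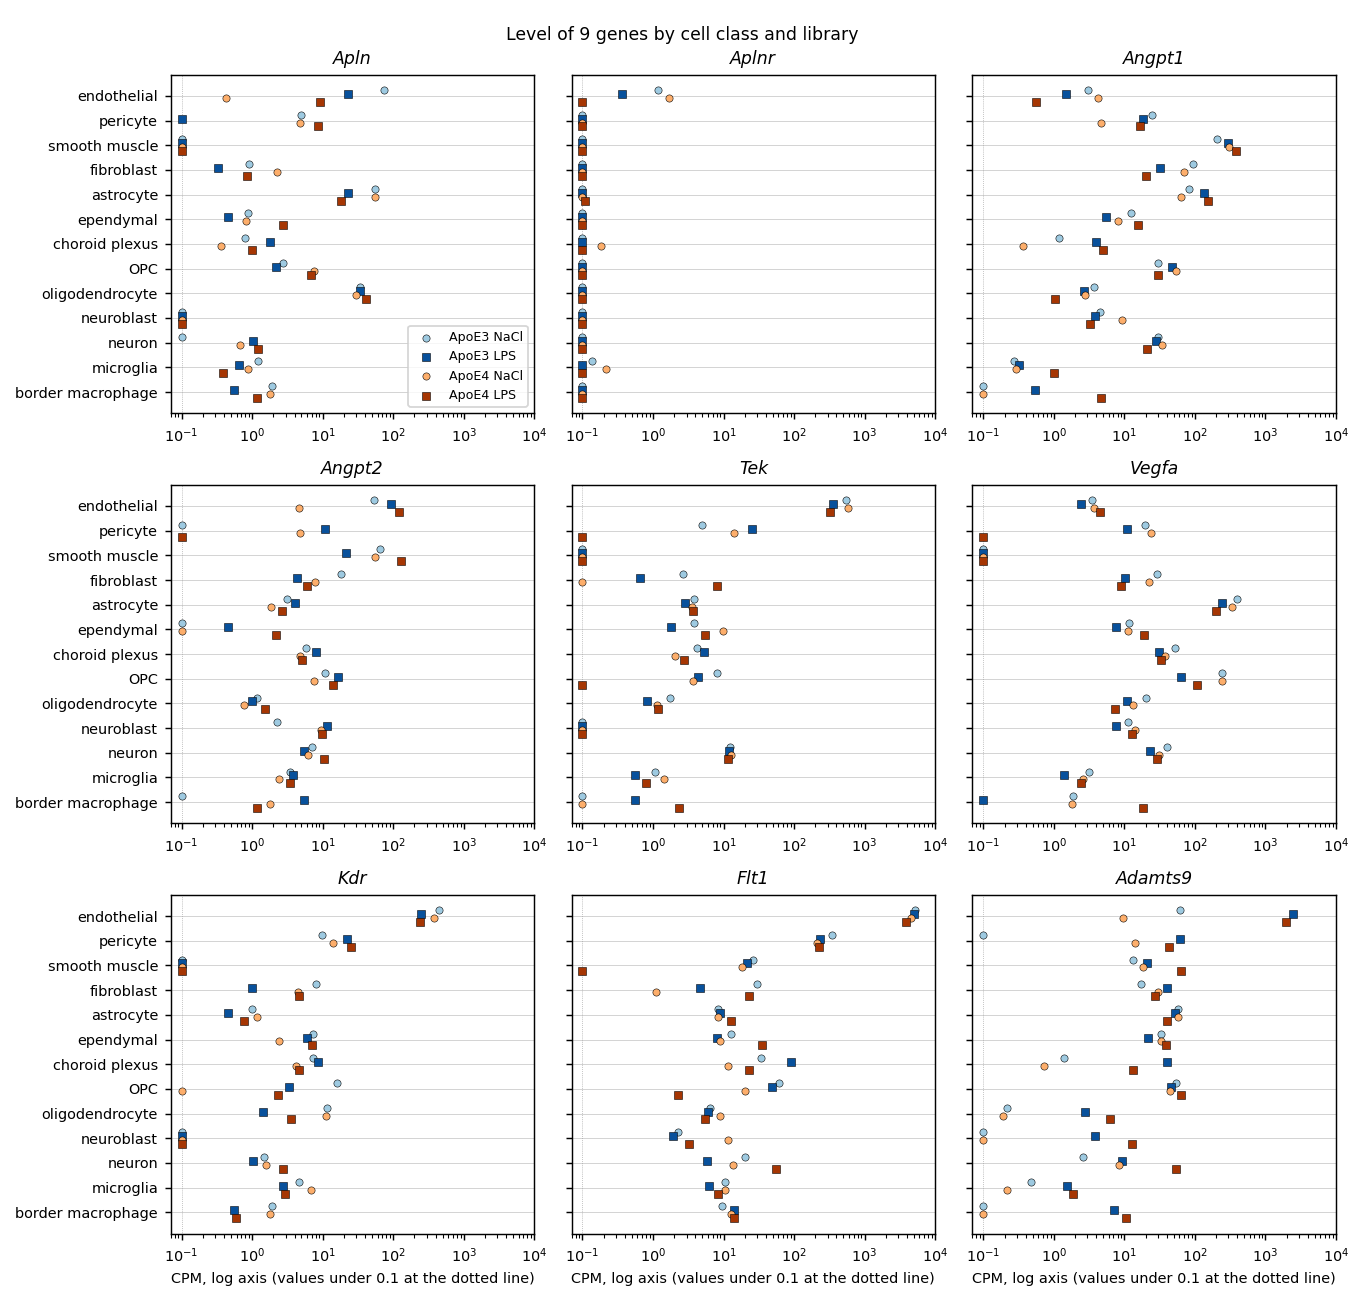
Level of each of the 9 genes (CPM, log axis) in each cell class, with 1 point per library coloured by group. The receptors Tek, Kdr and Flt1 have their 4 highest points in endothelial cells, Vegfa is highest on average in astrocytes, Angpt1 is highest in smooth muscle, which is too small for the ranking, and the endothelial points of Adamts9 spread from 9.63 to 2472 CPM.

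The first comparison asks what LPS was accompanied by in brain endothelium. In the LPS libraries the endothelial cells held far more Adamts9 and more Angpt2, and less Tek and Kdr, under both genotypes, while Flt1 differed little. Adamts9 stood at 62.2 CPM with NaCl and 2472 with LPS in ApoE3, and 9.63 with NaCl and 1970.3 with LPS in ApoE4. Both LPS libraries were far above both NaCl libraries. This compares different sub-clusters as well as different libraries, since sub-clusters of 367, 589 and 414 vascular cells held 220, 314 and 244 of the ApoE3 NaCl cells but 0, 5 and 2 of the ApoE3 LPS cells. Sub-clusters of 525 and 583 cells held 44 and 0 of the ApoE3 NaCl cells and 322 and 421 of the ApoE3 LPS cells, and those of ApoE4 were split likewise. The ratio of LPS to NaCl was 39.7 (35.2 to 45.0) in ApoE3 and 205 (136 to 323) in ApoE4, where the NaCl library gave 23 UMIs.

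The Adamts9 difference lay in most of the cells. After each cell was thinned to 1000 UMIs, 4.27% of endothelial cells had an Adamts9 UMI with NaCl and 76.8% with LPS in ApoE3, and 1.33% with NaCl and 64.8% with LPS in ApoE4. Without thinning the shares were 11.6%, 93.5%, 3.33% and 82.3%, at median depths of 3169, 4740.5, 2513 and 3193 UMIs per cell. Oligodendrocytes, which served as the background for free RNA, had 0 to 0.668% after thinning, and 0.106% to 1.60% without it, at median depths of 4703 to 5997.5 UMIs. Adamts9 in oligodendrocytes was higher with LPS, as in endothelial cells, from 3 UMIs in each NaCl library to 51 in ApoE3 LPS and 54 in ApoE4 LPS. Its levels were 0.217, 2.79, 0.189 and 6.31 CPM. Between the LPS libraries it was higher in ApoE4, while the endothelial level was higher in ApoE3. The left-out barcodes with markers of a second class showed the same order, with 88.8, 1942, 10.1 and 1385 CPM.

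Angpt2, the Tie2 antagonist, stood at 52.6 CPM with NaCl and 93.4 with LPS in ApoE3, and 4.61 with NaCl and 120.0 with LPS in ApoE4. The LPS libraries were the higher of each pair, and the NaCl libraries differed from each other more than the LPS libraries did. The ratio of LPS to NaCl was 1.78 (1.51 to 2.09) in ApoE3 and 26.0 (14.3 to 53.0) in ApoE4, where the NaCl library gave 11 UMIs. Its UMIs came from 67 of 844 cells with NaCl and 182 of 768 with LPS in ApoE3, and 11 of 601 with NaCl and 75 of 344 with LPS in ApoE4. These cells were counted without thinning, and the LPS cells were deeper. Median depths were 3169 and 4740.5 UMIs in ApoE3 and 2513 and 3193 in ApoE4.

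Tek, the receptor of both angiopoietins, stood at 542 CPM with NaCl and 356 with LPS in ApoE3, and 579 with NaCl and 320.5 with LPS in ApoE4. The LPS libraries lay 1.52-fold (1.43 to 1.62) lower in ApoE3 and 1.81-fold (1.64 to 1.996) lower in ApoE4. Kdr stood at 444, 246, 382 and 239 CPM in the same order of libraries, 1.80-fold (1.68 to 1.94) lower with LPS in ApoE3 and 1.59-fold (1.42 to 1.79) lower in ApoE4. For both receptors, each LPS library was below each NaCl library. Flt1 stood at 5132, 4976, 4595 and 3868 CPM, a ratio of 0.970 (0.952 to 0.987) in ApoE3 and 0.842 (0.817 to 0.868) in ApoE4, both short of 1.5-fold.

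The ligands Angpt1 and Vegfa were scarce in endothelial cells, with 13, 8, 10 and 1 UMIs of Angpt1 and 15, 13, 9 and 8 of Vegfa in the 4 libraries. Of the 9 genes, 8 were measured with at least 10 UMIs in ApoE3, and 2 were at least 1.5-fold higher and 4 at least 1.5-fold lower with LPS. Of all 12456 genes measured there, 13.4% were that much higher and 19.4% lower. In ApoE4, 7 were measured, 3 higher and 3 lower, against 15.1% higher and 23.6% lower of all 11302 genes. The measured members had a median log2 ratio of -0.58 in ApoE3 and -0.25 in ApoE4, beside -0.10 and -0.14 for all genes. These genes were chosen for such differences, so the counts describe them and are not set against the percentages. The lower members in ApoE3 include Angpt1 (2.08-fold, 0.797 to 5.78), whose interval spans no difference. In ApoE4 they include Angpt1 at 7.44-fold (1.06 to 323) from 1 UMI against 10.

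**Figure D2:**
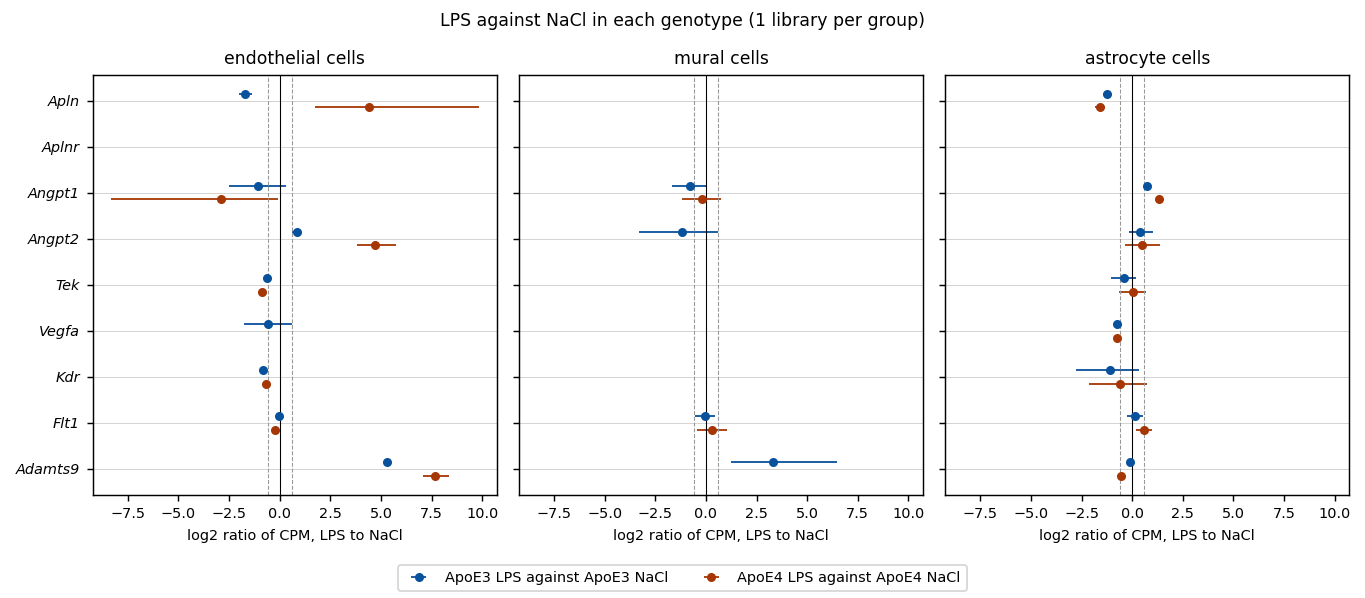
Log2 ratio of LPS to NaCl for each gene in endothelial cells, mural cells and astrocytes, with ApoE3 in blue, ApoE4 in brown, bars for the 95% counting interval and dashed lines at 1.5-fold. In endothelial cells Adamts9 lies highest and Tek and Kdr lie below 0 under both genotypes, while Apln lies on opposite sides of 0.

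Endothelial Apln went in opposite directions under the genotypes. It stood at 74.4 CPM (317 UMIs) with NaCl and 23.0 (125 UMIs) with LPS in ApoE3, and 0.419 (1 UMI) with NaCl and 9.01 (16 UMIs) with LPS in ApoE4. With LPS it was 3.24-fold (2.62 to 4.02) lower in ApoE3 and 21.5-fold (3.34 to 902) higher in ApoE4. The ApoE4 ratio, 4.43 on the log2 scale, was 1.02 when cells with markers of another class were left out and 2.805 after thinning. The ApoE3 NaCl value came from few cells: 30 of 844 had any Apln UMI, the highest single cell held 84, and the 20 highest cells held 307 of the 317. In ApoE3 LPS 41 of 768 cells had a UMI and the highest held 18, and in ApoE4 LPS 8 of 344 had a UMI and the highest held 8.

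Most of these cells formed a small group of their own. When the endothelial cells of ApoE3 NaCl were clustered again without the 9 genes, 58 cells came out together, with leading genes Ccnd1, Adm, Morrbid, Mcam, Ctla2a, Meox1, Itga4, Emp1, Ch25h and Adamts1 and too few vessel zone markers for a zone name. Of these genes only Ctla2a and Ch25h also led the endothelial cluster that held mainly LPS cells in the clustering of all libraries. That cluster had 1059 cells from ApoE3 LPS and 477 from ApoE4 LPS of 1597. Ctla2a is also on the list of endothelial markers and was a leading gene of a sub-cluster of 299 cells in ApoE4 NaCl. With ApoE3 LPS clustered alone, Adm was a leading gene of a sub-cluster of 275 cells that held 95 of the 125 Apln UMIs. The 58 cells held 292 of the 317 Apln UMIs (92.1%), 140 of the 224 Angpt2 UMIs (62.5%) and 159 of the 265 Adamts9 UMIs (60.0%). Their levels were 756 CPM of Apln, 363 of Angpt2 and 412 of Adamts9, against 6.45, 21.7 and 27.4 in the other 786 cells. Kdr was 639.8 CPM in the 58 cells and 424 in the others, Tek 355 and 560.4, and Flt1 3533 and 5291. Apln, Angpt2 and Kdr are known as genes of the tip cells of sprouting vessels, and the group is given no cell type name here.

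Marker lists of other classes differed in both directions between the 58 cells and the other 786. Astrocyte markers summed to 445.5 CPM in the 58 cells and 443 in the others, pericyte markers to 772 and 957.5, and oligodendrocyte markers to 624 and 498.5. Lower in the 58 cells were the markers of choroid plexus (565 and 1031 CPM), ependymal cells (433 and 742), neuroblasts (15.5 and 126), fibroblasts (46.6 and 105) and smooth muscle (15.5 and 52.7). Border macrophage markers summed to 95.8 and 34.3 CPM, with 1 of 10 markers detected in the 58 cells, and the part of these markers in the result was not tested. Their median depth was 4324 UMIs, and 0, 1 and 0 of their barcodes recurred in ApoE3 LPS, ApoE4 NaCl and ApoE4 LPS. In a clustering of the vascular cells of all libraries, 40 of the 58 fell in a sub-cluster of 525 cells that held 44 from ApoE3 NaCl, 322 from ApoE3 LPS, 2 from ApoE4 NaCl and 157 from ApoE4 LPS. How many of the 3 mice contributed these 58 cells is not recorded in the files.

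**Figure D3:**
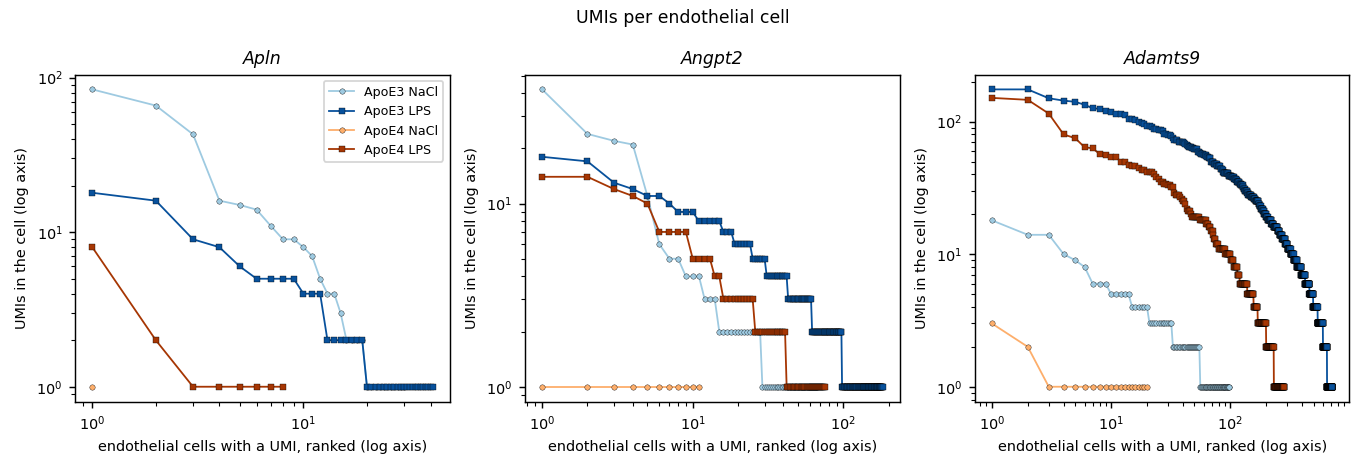
UMIs of Apln, Angpt2 and Adamts9 in single endothelial cells of the 4 libraries, with cells that have a UMI ranked from high to low on the x axis and UMIs per cell on the y axis (both log axes). The Apln curve of ApoE3 NaCl starts at 84 UMIs and drops within 30 cells, while Adamts9 has UMIs in 718 of 768 cells of ApoE3 LPS.

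Several ratios rest on these cells. Without them, Apln was 3.56-fold (2.30 to 5.71) higher with LPS in ApoE3, so its direction turned, Angpt2 was 4.31-fold (3.41 to 5.49) higher and Adamts9 90.3-fold (74.6 to 110.4) higher. Tek was 1.57-fold and Kdr 1.72-fold lower without them, close to the values with them. The cells were left out on the NaCl side only and were chosen after their values were seen. No like cells were left out of ApoE3 LPS, where the sub-cluster with 95 of the 125 Apln UMIs stayed in. These ratios therefore show how far the values rest on the 58 cells and are not a second, balanced comparison. With the 58 cells left out, 3 members were at least 1.5-fold higher and 3 lower in ApoE3, beside 1773 higher and 2456 lower of all 12391 genes.

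The other endothelial sub-clusters showed where the LPS differences lay. In ApoE3 LPS a sub-cluster of 360 cells held 3428 CPM of Adamts9 and 127 of Angpt2, and a sub-cluster of 275 cells held 1300.0 and 76.6 but most of the Apln (95 of 125 UMIs, 60.6 CPM). Cells with arterial markers (78 cells) held 1806 CPM of Adamts9 and cells with venous markers (55 cells) 2149. In ApoE4 LPS the capillary sub-cluster (185 cells) held 826 CPM of Adamts9, 39.0 of Angpt2 and 472 of Tek, and the unnamed sub-cluster of 144 cells held 3129, 196 and 173. Of the 2 largest sub-clusters of each LPS library, the one with more Adamts9 and Angpt2 had less Tek, at 291 against 438 CPM in ApoE3 LPS. Every sub-cluster of the LPS libraries was above every sub-cluster of the NaCl libraries for Adamts9, where the 58 cells were the highest at 412 CPM. This takes in an ApoE4 LPS sub-cluster of only 15 cells, with 2153 CPM of Adamts9 and 241 of Angpt2. Its leading genes include Fjx1 and Timp4, which also led astrocyte clusters, and doublets were not removed from that library. Whether these are mixed cells was not tested. In the NaCl libraries Kdr was lowest in the arterial sub-clusters, at 271 CPM in ApoE3 and 188 in ApoE4, against 423 to 639.8 in the other sub-clusters.

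**Figure D4:**
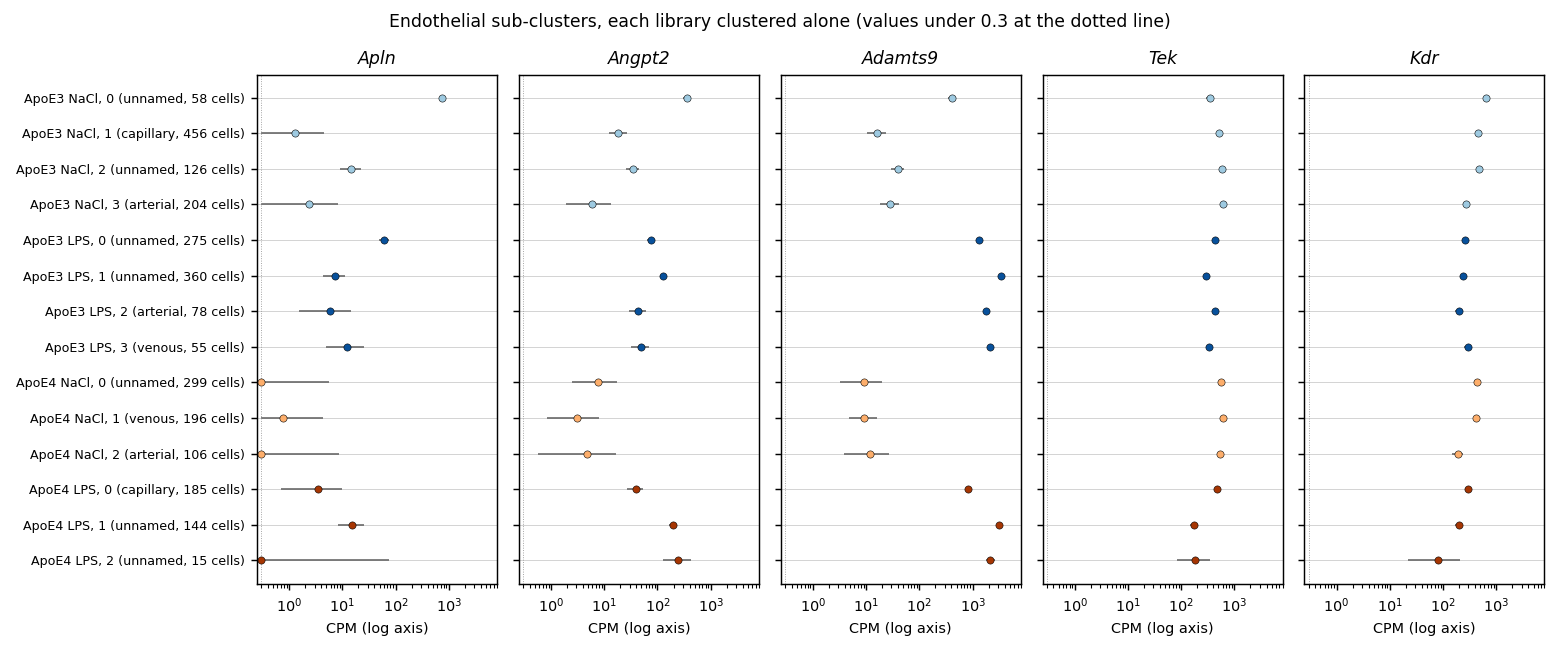
Levels (CPM, log axis) of Apln, Angpt2, Adamts9, Tek and Kdr in the endothelial sub-clusters of each library, with 95% counting intervals. The 58-cell sub-cluster of ApoE3 NaCl stands alone for Apln at 756 CPM, and every LPS sub-cluster lies above every NaCl sub-cluster for Adamts9.

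The comparison of ApoE4 with ApoE3 without LPS asks how the genotypes differ at baseline. In the NaCl libraries ApoE4 endothelium had less Apln, Angpt2 and Adamts9, with receptor levels near those of ApoE3. Apln was 178-fold (31.7 to 7039) lower on 1 UMI against 317, Angpt2 11.4-fold (6.26 to 23.2) lower and Adamts9 6.46-fold (4.21 to 10.4) lower. Without the 58 cells, left out of ApoE3 NaCl only, these became 15.4-fold (2.52 to 633), 4.71-fold (2.50 to 9.79) and 2.84-fold (1.80 to 4.67) lower. Kdr was 1.16-fold (1.07 to 1.26) and Flt1 1.12-fold (1.09 to 1.14) lower, and Tek had a ratio of 1.07 (0.9996 to 1.14). Of 8 members measured, 0 were at least 1.5-fold higher and 3 lower, beside 5.06% and 7.09% of all 11870 genes. The comparison uses the same NaCl libraries as the LPS ratios above, so it is not a further set of animals.

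With LPS the genotypes were closer to each other than with NaCl in Apln, Angpt2 and Adamts9 and further apart in Flt1. Against ApoE3 LPS, the ApoE4 LPS endothelium had 2.55-fold (1.51 to 4.598) less Apln, 1.28-fold (1.09 to 1.51) more Angpt2, 1.25-fold (1.21 to 1.30) less Adamts9 and 1.29-fold (1.25 to 1.32) less Flt1. Of 7 members measured, 1 was at least 1.5-fold higher (Vegfa, on 8 and 13 UMIs) and 1 lower, beside 8.91% and 9.5% of all genes, larger shares than between the NaCl libraries. With 0.5 UMI added to each sum, which moves values that rest on few UMIs away from the ratios above, the difference of the log2 LPS ratios, ApoE4 minus ApoE3, was 5.58 (3.15 to 8.01, an approximate counting interval) for Apln, 3.82 (2.93 to 4.70) for Angpt2 and 2.34 (1.72 to 2.95) for Adamts9. It was -0.25 (-0.41 to -0.08) for Tek, 0.18 (-0.02 to 0.37) for Kdr and -0.20 (-0.25 to -0.15) for Flt1. For the first 3 genes these differences contain the NaCl values of 1 to 23 UMIs in ApoE4 and the 58 cells in ApoE3.

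Astrocytes make much of the Vegfa of the brain and touch the vessels with their endfeet. With LPS they held less Vegfa and Apln and more Angpt1, under both genotypes. Vegfa stood at 397 CPM with NaCl and 239 with LPS in ApoE3, and 334 with NaCl and 198 with LPS in ApoE4, so that both LPS libraries were below both NaCl libraries. It was 1.66-fold (1.59 to 1.73) lower in ApoE3 and 1.69-fold (1.60 to 1.78) lower in ApoE4. The difference between genotypes in the log2 LPS ratio of Vegfa was -0.02 (-0.12 to 0.08). A further 25, 34, 9 and 169 astrocyte barcodes were left out as mixed and are not in these values. In the 169 of ApoE4 LPS Vegfa was 105 CPM and Angpt1 59.6. In the 34 of ApoE3 LPS they were 147 and 99.1.

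Astrocyte Apln stood at 55.5 CPM with NaCl and 23.1 with LPS in ApoE3, and 54.8 with NaCl and 18.4 with LPS in ApoE4, on 167 to 842 UMIs per library. It was 2.40-fold (2.10 to 2.74) lower with LPS in ApoE3 and 2.98-fold (2.52 to 3.54) lower in ApoE4. The NaCl libraries thus had nearly the same Apln level in astrocytes, unlike in endothelial cells. Astrocyte Angpt1 stood at 81.3, 133, 63.2 and 156 CPM in the same order, 1.63-fold (1.52 to 1.76) higher with LPS in ApoE3 and 2.46-fold (2.26 to 2.68) higher in ApoE4. The difference in its log2 LPS ratio, ApoE4 minus ApoE3, was 0.59 (0.43 to 0.75). The LPS libraries held different mixes of astrocyte sub-clusters. In ApoE4 LPS 473 and 402 of 2326 astrocytes fell in sub-clusters that held 139 and 23 of 3244 in ApoE3 LPS. Angpt1 there was 167 and 315 CPM in ApoE4 LPS and 140 and 265 in ApoE3 LPS. In a sub-cluster of 1262 ApoE3 LPS and 418 ApoE4 LPS cells it was 221 and 194, so sub-clusters went both ways. The part of the mix was not tested.

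Adamts9 had its own astrocyte level of 57.1, 52.6, 58.3 and 39.9 CPM, with ratios of LPS to NaCl of 0.922 (0.833 to 1.02) in ApoE3 and 0.685 (0.604 to 0.776) in ApoE4. The large endothelial difference in Adamts9 was therefore not seen in astrocytes. Tek, Kdr, Flt1 and Angpt2 stayed at or under 12.6 CPM in astrocytes, where the 14 endothelial markers summed to 90.0 to 199 CPM, and their source there was not tested. Of 8 members measured in astrocytes, 1 was at least 1.5-fold higher and 3 lower with LPS in ApoE3, beside 8.07% and 9.91% of all 15848 genes. The same counts, 1 and 3 of 8, stood beside 11.5% and 9.32% of all 15623 genes in ApoE4. In the NaCl libraries 0 of 8 were higher and 1 lower (Angpt2, on 27 and 47 UMIs) in ApoE4 than in ApoE3, beside 3.81% and 5.77%. With LPS 0 of 7 were higher and 1 lower, again Angpt2, beside 8.93% and 4.54%. Besides Vegfa and Apln, the member lower with LPS than with NaCl was Kdr, on 17 UMIs or fewer in each library.

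The astrocyte differences were also read within sub-clusters that had at least 20 cells in both libraries compared. Vegfa was lower with LPS in 11 of 12 sub-clusters in ApoE3 and in 11 of 11 in ApoE4, with median log2 ratios of -0.74 and -0.38. Apln was lower in 11 of 12 and 11 of 11, with medians of -0.63 and -1.18. Angpt1 was higher in 9 of 12 and 10 of 11, with medians of 0.57 and 0.86. The medians were smaller in size than the ratios over all astrocytes for Apln and Angpt1 under both genotypes and for Vegfa in ApoE4. All sub-clusters of a comparison came from the same libraries, so these counts are not repeated observations. How many of all genes moved alike in as many sub-clusters was not counted. Some values rest on few UMIs or uneven parts, under both genotypes. In ApoE3 a sub-cluster of 36 NaCl and 27 LPS cells gave 11 and 2 UMIs of Vegfa and 2 and 3 of Apln. A sub-cluster of 53 and 139 ApoE3 cells gave 1 and 2 of Apln, and another set 20 NaCl cells against 1053 LPS cells. In ApoE4 a sub-cluster of 29 NaCl and 473 LPS cells gave 2 and 8 UMIs of Apln and 6 and 334 of Angpt1. Another, of 24 and 365 ApoE4 cells, gave 2 and 53 UMIs of Angpt1.

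**Figure D5:**
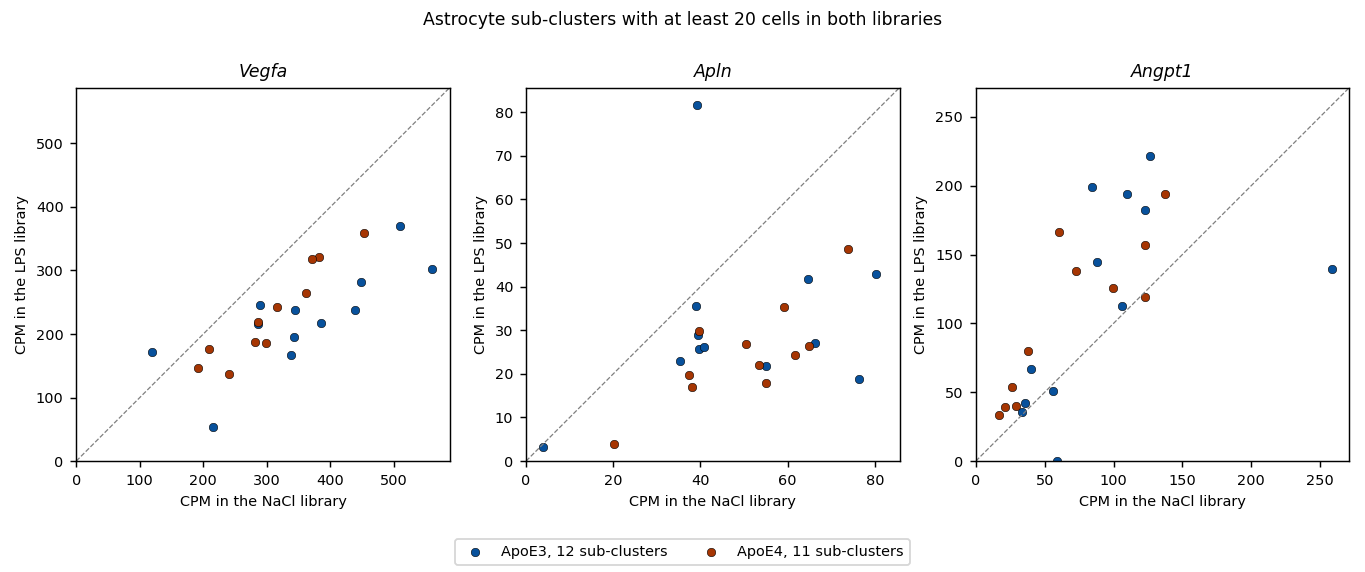
Levels of Vegfa, Apln and Angpt1 (CPM) in astrocyte sub-clusters, with the NaCl library on the x axis and the LPS library on the y axis for each genotype, and a line of equality. Points of Vegfa lie below the line in 11 of 12 (ApoE3) and 11 of 11 (ApoE4) sub-clusters, and points of Angpt1 above it in 9 of 12 and 10 of 11.

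In OPC, the second class rich in Vegfa, the level was 245 CPM with NaCl and 63.9 with LPS in ApoE3, and 240.1 with NaCl and 106 with LPS in ApoE4, on 46 to 129 UMIs. It was 3.83-fold (2.73 to 5.43) lower with LPS in ApoE3 and 2.27-fold (1.61 to 3.26) lower in ApoE4. Oligodendrocyte Vegfa was low, at 20.2, 10.8, 13.2 and 7.47 CPM, and lay 1.87-fold (1.55 to 2.25) and 1.76-fold (1.32 to 2.37) lower with LPS. Thus Vegfa was lower with LPS in all 3 of these glial classes.

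Oligodendrocytes, the myelin-forming cells, held Apln at 33.5, 33.5, 29.9 and 40.9 CPM, with ratios of LPS to NaCl of 0.9996 (0.885 to 1.13) in ApoE3 and 1.37 (1.19 to 1.57) in ApoE4. The lower Apln of astrocytes with LPS was not seen there. Kdr stood at 11.6 CPM with NaCl and 1.42 with LPS in ApoE3, and 11.1 with NaCl and 3.50 with LPS in ApoE4, 8.15-fold (5.36 to 12.9) and 3.16-fold (2.14 to 4.83) lower with LPS. As a share of the endothelial level, oligodendrocyte Kdr was 2.61%, 0.577%, 2.90% and 1.46%, while the endothelial markers had medians of 0.184% to 0.266% and a highest marker of 0.308%, 0.817%, 0.468% and 0.995%. Kdr thus exceeded the highest endothelial marker in both NaCl libraries and in ApoE4 LPS, but not in ApoE3 LPS. After thinning, 1.33%, 0.293%, 1.38% and 0.267% of oligodendrocytes had a Kdr UMI, and 0.118%, 0.0925%, 0.136% and 0.043% of astrocytes. Without thinning the oligodendrocyte shares were 5.33%, 0.880%, 5.66% and 1.87%. NaCl and LPS oligodendrocytes fell in different clusters, so the comparison is also one between clusters: clusters 0 and 18 held NaCl cells (Kdr 9.49 to 11.8 CPM) and cluster 6 held LPS cells (1.43 and 3.47 CPM).

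Mural cells, the pericytes and smooth muscle cells around the vessel, were few: 155 with NaCl and 142 with LPS in ApoE3, and 156 with NaCl and 72 with LPS in ApoE4. Their Angpt1 came mainly from smooth muscle, where the level was 204, 298, 301 and 381 CPM on 31, 14, 33 and 12 UMIs. The ratios of LPS to NaCl there were 1.46 (0.716 to 2.82) in ApoE3 and 1.26 (0.595 to 2.51) in ApoE4, neither separable from no difference at this depth. Over all mural cells Angpt1 stood at 101, 59.0, 106 and 93.6 CPM, which moves with the share of smooth muscle: 41 of 155, 13 of 142, 42 of 156 and 13 of 72 cells. Mural Adamts9 was 2 UMIs in ApoE3 NaCl and 18 in ApoE3 LPS, a ratio of 9.96 (2.38 to 88.5), and 5 and 7 UMIs in ApoE4. In pericytes of ApoE3 LPS its level was 2.50% of the endothelial level, within the 0 to 64.9% of endothelial markers and close to their median of 3.11%.

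Pericyte Flt1 stood at 347, 236, 212 and 229 CPM, or 6.76%, 4.75%, 4.61% and 5.91% of the endothelial level, above the marker medians of 0.878% to 3.11% and below the highest marker of 42.9% to 71.9%. Whether pericytes make Flt1 was not tested. Of the 9 genes, 4 were measured in mural cells in ApoE3 and 1 was at least 1.5-fold higher and 2 lower with LPS, beside 18.2% and 18.4% of all 6900 genes. In ApoE4 2 were measured and 0 passed, beside 13.2% higher and 26.5% lower of all genes. Between genotypes 0 of 3 passed without LPS, beside 13.7% and 14.5%. With LPS 1 of 3 (Angpt1) was higher and 0 lower, beside 12.7% and 24.4%, and other ways of choosing the mural cells turned the direction of Angpt1, to log2 -0.10 without smooth muscle.

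Fibroblasts of the meninges and perivascular space held Angpt1 at 95.3 CPM with NaCl and 31.9 with LPS in ApoE3, and 70.1 with NaCl and 20.2 with LPS in ApoE4. Here Angpt1 was 2.99-fold (2.25 to 3.98) and 3.46-fold (2.34 to 5.15) lower with LPS, the opposite direction to astrocytes. Each LPS library was below each NaCl library. The class joins a cluster of 732 cells, named on 5 fibroblast markers, and one of 72 cells, named on 11. The smaller cluster gave 20, 26, 16 and 10 of the 131, 226, 116 and 331 cells. The part of this mix in the ratios was not tested.

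The other genes of these pathways were taken from fixed lists and counted in endothelial cells, past 1.5-fold with LPS in ApoE3 and then ApoE4. Of all genes, 13.4% were higher and 19.4% lower in ApoE3 and 15.1% and 23.6% in ApoE4. A gene is named where its ratio was among the 2 largest of its list, in either direction, in a comparison. Of the angiopoietin and TIE list, 1 was higher and 3 lower of 7 measured under both genotypes. Angptl4, an angiopoietin-like inhibitor of lipoprotein lipase, was 3.17-fold (2.49 to 4.07) and 4.35-fold (3.16 to 6.08) higher. Grb14, an adaptor protein, was 2.38-fold (2.20 to 2.57) lower in ApoE3, and Ptprb, the phosphatase that restrains Tie2, 2.05-fold (1.92 to 2.18) lower in ApoE4. Median log2 ratios of the list were -0.49 and -0.38, beside -0.10 and -0.14 for all genes.

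Of the other VEGF ligands, receptors and co-receptors, 2 were higher and 4 lower of 9 measured under both genotypes, with median log2 ratios of -0.16 and -0.54. Pgf, a ligand of VEGFR1, stood at 2.11 CPM in ApoE3 NaCl and 23.0 in ApoE3 LPS, 10.9-fold (5.55 to 24.3) higher, and 18.2-fold (4.56 to 158) higher in ApoE4 on 2 UMIs against 27. Nrp1, a co-receptor of VEGFR2, was 2.89-fold (2.62 to 3.20) lower in ApoE3, and the ligand Vegfd 2.38-fold (1.42 to 4.15) lower in ApoE4. Of the apelin system list, 1 was higher and 0 lower of 4 under both genotypes: Gna13, a G protein subunit, at 1.72-fold (1.51 to 1.95) and 1.94-fold (1.60 to 2.37). Its medians were 0.41 and 0.01.

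Of the tip cell genes, 8 were higher and 3 lower of 15 with LPS in ApoE3, and 9 higher and 2 lower of 14 in ApoE4, with median log2 ratios of 0.65 and 2.29, beside -0.10 and -0.14 for all genes. The insulin-like growth factor binding protein gene Igfbp3 was 4.85-fold (3.70 to 6.45) and 7.62-fold (5.24 to 11.4) higher. The sulfotransferase gene Chst1 was 11.3-fold (5.78 to 25.3) higher in ApoE3, and Cotl1, which encodes an actin-binding protein, 6.92-fold (3.04 to 18.4) higher in ApoE4. Without the 58 cells the ApoE3 counts were 8 higher and 2 lower of 14. Between the NaCl libraries 1 was higher and 5 lower of 14 in ApoE4, beside 5.06% and 7.09% of all genes, and 1 and 1 of 13 without the 58 cells, so that this count rests on them.

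Of the VEGF and calcineurin response genes, 4 were higher and 4 lower of 14 in ApoE3 and 3 and 3 of 14 in ApoE4, with medians of 0.30 and -0.03, among them the phosphatase Dusp5 at 4.92-fold (2.20 to 12.95) and 3.53-fold (1.502 to 9.22) higher. Of the HIF target genes, 4 were higher and 3 lower of 14 under both genotypes, with medians of 0.08 and 0.03. Among the higher was Pfkfb3, a regulator of glycolysis, at 1.962-fold (1.55 to 2.50) and 3.39-fold (2.55 to 4.55) higher. Adm, the vasodilator peptide adrenomedullin, was 2.13-fold (1.81 to 2.51) higher in ApoE3. It was also a leading gene of the 58 cells of ApoE3 NaCl, which are in this ratio. Without the 58 cells the ApoE3 counts were 3 higher and 3 lower of 14 HIF targets. For the VEGF and calcineurin response genes they were 3 and 4 of 14. In astrocytes 2 HIF targets were higher and 3 lower of 16 under both genotypes, with medians of -0.15 and -0.14, beside 8.07% and 9.91% of all genes in ApoE3 and 11.5% and 9.32% in ApoE4. Pdk1, which encodes a kinase that limits pyruvate oxidation, was 1.74-fold (1.47 to 2.08) lower in ApoE3.

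Of the ADAMTS proteases and their substrates, 4 were higher and 2 lower of 10 in ApoE3 and 4 and 2 of 9 in ApoE4, with medians of -0.18 and -0.13. Adamts4, another protease that cleaves proteoglycans, gave 2 UMIs with NaCl and 489 with LPS in ApoE3, and 1 and 210 in ApoE4. The ratios were 191 (52.7 to 1585) and 282 (50.1 to 11206). Its relative Adamtsl2 went the other way, with 67 and 1 UMIs in ApoE3 and 41 and 1 in ApoE4, 85.6-fold (14.8 to 3429) and 30.5-fold (5.17 to 1233) lower with LPS. Of the quiescence and Notch genes, 1 was higher and 4 lower of 16 in ApoE3 and 1 and 5 of 16 in ApoE4, with medians of 0.03 and -0.20. The lower counts lie near the shares of all genes, and no difference of the list as a whole is read from them. The Notch target Hey1 was 3.61-fold (2.86 to 4.59) and 5.58-fold (3.40 to 9.70) lower. The share of cells in sub-clusters named arterial differed as well. For ApoE3 it was 204 of 844 cells without LPS and 78 of 768 with it. For ApoE4 it was 106 of 601 without LPS, and with LPS no sub-cluster took that name. The part of this zone mix in the Hey1 ratios was not tested.

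The genes most like each member over 48 sums (12 classes in 4 libraries, which share their libraries and depths) are given by Pearson r of log2(CPM + 1) among 19611 genes. Closest were Adgrf5 for Flt1 (r = 0.97), Olfm5 for Aplnr (0.97), Grrp1 and Erg for Tek (0.91 each), Wdr17 for Vegfa (0.89), Foxq1 for Kdr (0.88) and Slc4a4 for Angpt1 (0.86). The highest r was lower for Adamts9, with Irx3 and the collagen genes Col4a2 (0.77 each) and Col4a1 (0.75), for Apln with Tmem229a (0.75) and Dock1 (0.73), and for Angpt2 with Unc13b (0.75). The r of Aplnr rests on few UMIs. With a pseudocount of 10 CPM, 14 of the 27 nearest genes remained, and for Adamts9 0 of 3.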

How the data were processed

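Suspensions enriched for glia from male mouse brains were sequenced as 4 single-cell libraries, 1 per group (10x Genomics chemistry for transcript 3′ ends). The authors deposited raw UMI counts per gene and barcode, which per the file headers came from Cell Ranger 7.0.1 (7.0 per the submitters' processing notes) with the mm10 build. Whether intronic reads were counted and how barcodes were called is not given in the sources used here. The precision is set by the UMIs of each class, which the text gives.

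Barcodes with at least 1000 UMIs, 500 genes and at most 20% mitochondrial UMIs were kept. Doublets called by Scrublet in scanpy 1.11.5 were removed where it worked, so not in ApoE4 LPS, which left 13013 (NaCl) and 13765 (LPS) cells in ApoE3 and 12032 and 18182 in ApoE4. Cells were clustered (2000 variable genes, 30 principal components, Leiden resolution 1) without the 9 genes. A cluster took a class name from at least 3 markers that were 2-fold above the other clusters. Vascular cells and astrocytes were clustered a second time, a step added after seeing the data. Vascular and astrocyte sub-clusters with over 10% of another class's marker level were left out.

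Counts were summed per class and library and divided by the class total (CPM). Ratios carry exact conditional binomial intervals. A gene was measured where either library gave 10 UMIs or more, and past the fold at 1.5. A level of 0 is bounded by 3 counts, which is not one of the exact intervals. For the fold calls and the median log2 ratios a sum of 0 was set to 0.5 counts. No test was run, since each group is 1 library. The fold calculation was tested on simulated data. The members and lists were chosen with earlier results of these data known. The genes named are the 9 members, the 3 genes most like each, and per list the 2 with the largest ratio among those whose interval excludes 1, of which the text gives a part. The zone clusters and the 58 cells were chosen after their values were seen. Promoters are RefSeq windows.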

Additional observations from a re-analysis of the deposited data

Results flagged for a closer look

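Apln in endothelial cells differed in opposite directions under the genotypes. Its log2 ratio of LPS to NaCl was -1.695 in ApoE3 and 4.427 in ApoE4, and the difference was not tested because each group is 1 library. In ApoE3 NaCl 292 of the 317 Apln UMIs came from 58 cells, and without them the ApoE3 log2 ratio was 1.83. They were left out on the NaCl side only, after their values were seen. In ApoE4 the ratio stands on 16 UMIs against 1.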

How the results depend on the processing

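No paired analysis was possible because each group has 1 library and the labels give no replicate numbers. The counts of members past 1.5-fold stayed within 1.5 times the main count under every alternative run in endothelial cells (6, 6 and 3 for LPS in ApoE3, LPS in ApoE4 and the NaCl libraries) and in astrocytes with LPS (4 and 4). In astrocytes of the NaCl libraries the count of 1 became 2 after thinning and 0 with at least 50 UMIs per gene. Of 752 single ratios under alternatives, 647 stayed within their interval, 97 moved and 8 changed direction. 1 of these is endothelial Apln in ApoE3, at log2 1.83 without the 58 cells. The other 7 are mural Angpt1 in ApoE4 LPS against ApoE3 LPS, at 0.67 in the report. It was -2.08 with doublets kept, -0.44 from 500 UMIs per cell, -0.56 at no more than 10% mitochondrial UMIs, -0.020 after thinning, -0.074 as a mean of each cell's CPM, -0.58 without the second clustering and -0.10 without smooth muscle. Endothelial Angpt2 with LPS in ApoE3 was 0.83 on the log2 scale, and ranged up to 1.43 without cells holding markers of another class and 2.11 without the 58 cells.

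Mural counts depended on nearly every choice, at 4 members or fewer measured. With LPS in ApoE3 the count of 3 was 1 at 2000 UMIs or 500 UMIs per cell, after thinning and without smooth muscle, 0 without cells holding markers of another class, with classes set per cell and at 50 UMIs per gene, and 6 with no minimum. With LPS in ApoE4 the count of 0 was 2 with doublets kept and at 2000 or 500 UMIs, 3 at 10% mitochondrial UMIs, 1 at Leiden resolution 2, with classes set per cell, after thinning and as a mean of each cell's CPM, 5 with no minimum and 4 without the second clustering. Between the NaCl libraries the count of 0 was 1 with doublets kept, at 2000 UMIs, at 10% mitochondrial UMIs, at Leiden resolution 2, after thinning, without the second clustering and without smooth muscle, 2 as a mean of each cell's CPM and 3 with no minimum. The cause was not tested. The alternatives without the second clustering, without smooth muscle and without the 58 cells were chosen after seeing the data. The alternative on the largest endothelial sub-cluster shared by the 4 libraries was not run, since no sub-cluster had 20 cells in every library.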
